A study of Homo sapiens with 10 samples.

Results

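The genes of serine, proline and asparagine synthesis and their regulator ATF4 were followed through long-read libraries of 2 human cell lines in which ribosomes mark messenger RNA by editing it. The 9 genes were ATF4 (ENSG00000128272), ASNS (ENSG00000070669), PHGDH (ENSG00000092621), PSAT1 (ENSG00000135069), PSPH (ENSG00000146733), SHMT2 (ENSG00000182199), MTHFD2 (ENSG00000065911), PYCR1 (ENSG00000183010) and ALDH18A1 (ENSG00000059573). They were taken by name, through the Ensembl gene attached to each listed coding position, and all 9 were found among the 10631 genes listed in at least 1 library. The method, Ribo-STAMP, joins the cytidine deaminase APOBEC1 to the ribosomal protein RPS2, and mRNA in contact with ribosomes then gains C-to-U edits. APOBEC1 expressed alone gives the edits of the untethered enzyme. HEK293T is a human line derived from embryonic kidney, and MDA-MB-231 is a human triple-negative breast cancer line.

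The HEK293T groups were cells with a Ribo-STAMP construct (n = 3) and cells with an APOBEC1-only construct (n = 3), both induced with 1 ug/mL doxycycline for 72 h. The MDA-MB-231 groups both carried Ribo-STAMP induced with 1 ug/mL doxycycline for 48 h. They were cells given 100 uM CoCl2 for 48 h (n = 2), a cobalt salt used to mimic low oxygen, and cells not given CoCl2 (n = 2, untreated). Doxycycline and an introduced construct were thus shared by all cells, and no library came from cells without an editor. Whether a line is 1 clone, and whether numbered replicates came from separate cultures, is not given in the sources used here, so the p-values rest on a spread between libraries that may be technical. Library kits and induction times differed between the lines, so no test was made between them.

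In the integrated stress response, kinases that sense amino acid shortage, unfolded protein, heme shortage or double-stranded RNA phosphorylate the initiation factor eIF2. General initiation then falls while translation of ATF4 mRNA rises through its upstream reading frames, and ATF4 switches on genes of amino acid synthesis, uptake and tRNA charging. Serine is made from a glycolytic intermediate by PHGDH, PSAT1 and PSPH, in that order. SHMT2 and MTHFD2 pass its side-chain carbon into the mitochondrial folate pool. Proline is made from glutamate, with ALDH18A1 catalysing the first steps and PYCR1 the last one in mitochondria. ASNS makes asparagine from aspartate and glutamine. Only coding positions are in the files, so the upstream frames of ATF4 are not covered.

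The sequences below show the positions of these transcripts that gathered the most edited reads in MDA-MB-231, whose files could be placed on GRCh38. Each is 30 bases of the GENCODE 29 coding sequence on the gene's strand, 5′ to 3′, with the edited C as the single capital. They are the position with the most edited reads, summed over libraries and isoforms, in each of the 4 genes whose positions lead that count (for ALDH18A1, 1 of 2 tied positions). A total of this kind rises with coverage and is no measure of how often a read was edited.
PYCR1: gctgcatgaccaacaCtccagtcgtggtgc
SHMT2: cattcgggctcagcaCagcaacgcagccca
PSAT1: tgggtgcggccagttCagtgctgtcccctt
ALDH18A1: gaaggaggctgcacaCagcaaccggattct

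The PYCR1 position lies on chromosome 17 at 81935095 (minus strand, in the coding part of an exon of ENST00000619204), and a C-to-U change there would turn codon 124 into isoleucine (T124I). In reads of that isoform it was edited in 6 of 313 and 6 of 303 in CoCl2 replicates 1 and 2, against 1 of 203 in untreated replicate 2, and it was not listed in untreated replicate 1. The SHMT2 position, chromosome 12 at 57230853 (plus strand, ENST00000328923), is silent (H28H). It was edited in 6 of 268 reads of the named isoform in CoCl2 replicate 2, against 1 of 196 and 7 of 274 in untreated replicates 1 and 2. CoCl2 replicate 1 did not list it. The PSAT1 position, chromosome 9 at 78304792 (plus strand, ENST00000376588), is also silent (F83F), with 3 of 79 reads of its isoform edited in CoCl2 replicate 2, against 6 of 216 in untreated replicate 1. It was listed in neither CoCl2 replicate 1 nor untreated replicate 2. The ALDH18A1 position, chromosome 10 at 95616549 (minus strand, ENST00000371224), is silent as well (H511H). It was edited in 3 of 60 reads of its isoform in CoCl2 replicate 1, against 3 of 221 and 2 of 135 in untreated replicates 1 and 2. CoCl2 replicate 2 did not list this position. These are few edited reads at positions chosen for the highest total, so no difference between the groups is read from them.

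Over the 9 genes, 520 positions were edited in MDA-MB-231, of which 321 were listed in 1 library, 128 in 2 and 71 in 3. Their base context was that of the other genes. An A or a U preceded the edited C at 76.9% of positions (400 of 520, exact Clopper-Pearson 95% interval 73.1 to 80.5%). This compares with 76.7% over all genes and 41.1% of coding C in the listed isoforms of these 9 genes. Silent changes made up 51.9%, amino acid replacements 44.2% and new stop codons 3.85% of positions (20, interval 2.36 to 5.88%). Over all genes these shares were 49.3, 44.6 and 6.14%, and over the coding C in the listed isoforms of the 9 genes 46.2, 47.8 and 6.06%. Such coding C were counted in each isoform, so a C shared by several isoforms counts more than once, whereas each edited position counts once. The interval for stop codons ends just below that 6.06%. Because edited positions and coding C were counted in unlike ways, no shortage of stop codons is read from it. Over all genes the share, 6.14%, was also below that of coding C counted in the same way (7.28%). Intervals cover counting error only, since neighbouring positions share reads and reads need not be independent molecules.

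A second sequence bears on ATF4 itself. The amino acid response element, the composite site at which ATF4 binds with a C/EBP partner, has the core TGATGNAA. RefSeq promoter windows (GRCh38.p14, 250 bases before to 50 after a start) were at hand for 6 of the 9 genes, some with more than 1 window. On either strand the core was found in 1 gene, ASNS, and there in only 1 window. Over all 35116 windows of this length 3.62% held it, a share per window and not per gene. The ASNS match begins 68 bases before the start site, on the gene's strand, and is shown in capitals (chr7:97872455-97872490, minus strand).
ASNS: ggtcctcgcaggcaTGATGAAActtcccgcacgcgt
The other ASNS window (chr7:97872116-97872415) does not hold these letters. Neither do the windows of ATF4, PHGDH, PSAT1, MTHFD2 and ALDH18A1, which says nothing on binding elsewhere. No binding was measured here.

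The libraries of the series set the scale of what follows. Each file lists a position only where at least 1 read was edited, with the edited and the covering reads, so a gene that is not listed has unknown coverage rather than none. Reads on listed isoforms numbered 157544 to 203094 in Ribo-STAMP and 81592 to 110526 in APOBEC1-only HEK293T libraries. They numbered 1120240 to 1204720 in CoCl2 and 1135890 to 1137590 in untreated MDA-MB-231 libraries. The 9 genes held 171, 181 and 321 edited reads in the Ribo-STAMP libraries, against 1, 6 and 12 with APOBEC1 alone. They held 263 and 278 in CoCl2 and 306 and 288 in untreated cells. Of all edited reads of a library this was 0.15 to 0.18% in MDA-MB-231 and 0.0286 to 0.542% in HEK293T. Line markers followed the labels in part. All 10 MDA-MB-231 markers were listed in that line and 2 of them, VIM and CAV1, in HEK293T. Of 8 HEK293T markers 7 were listed in HEK293T (NEFL was not) and 4 in MDA-MB-231.

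The first comparison asked how many edits the ribosome-tethered enzyme placed on these transcripts relative to the free enzyme in HEK293T. ALDH18A1 carried the most edited reads. After scaling to relative depth it held 125, 141 and 106 edited reads in Ribo-STAMP replicates 1, 2 and 3, against 4.0 and 2.44 in APOBEC1-only replicates 2 and 3 and none listed in replicate 1. Every Ribo-STAMP library lay above every APOBEC1-only library, with a log2 change of 5.59 ± 0.60 (SE, limma). PSAT1 was the only other of the 9 genes with enough edited reads to be tested (at least 10 in 3 libraries). It held 12.2, 18 and 79.2 after scaling to depth in Ribo-STAMP replicates, against 2.00 and 6.10 in APOBEC1-only replicates 2 and 3 and none listed in replicate 1. Replicate 3 was far above the other Ribo-STAMP libraries (log2 change 3.29 ± 0.69, SE, limma).

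Both genes reached that minimum through the Ribo-STAMP libraries alone, so they had to be higher, and their changes are given as sizes, not as support. The same held for 606 of the 654 genes tested, of which 99.7% were higher and 0.153% lower, with a median change of 3.76 on the log2 scale. Scaling libraries to the bulk of edited genes (TMM) moved that median to 1.91 and the calls to 357 higher and 1 lower. The change was then 3.66 for ALDH18A1 and 1.45 for PSAT1 (limma adjusted p = 0.211 for PSAT1). A higher level of 1 construct and closer contact with mRNA cannot be told apart here.

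The other 7 genes did not reach the minimum but were listed mainly with Ribo-STAMP. In raw edited reads ASNS held 8, 16 and 57 in Ribo-STAMP replicates 1, 2 and 3 and was listed in no APOBEC1-only library. PHGDH held 3, 11 and 47 with Ribo-STAMP and 5 in APOBEC1-only replicate 3 alone. These libraries overlap for PHGDH, since 3 reads in a Ribo-STAMP library lie below 5 in an APOBEC1-only library. MTHFD2 held 2, 2 and 8 edited reads with Ribo-STAMP, and PYCR1 2 and 5 in replicates 2 and 3. SHMT2 (6), PSPH (2) and ATF4 (2) were listed in Ribo-STAMP replicate 3 only among the 3. MTHFD2, PYCR1, SHMT2 and PSPH were listed in no APOBEC1-only library, while ATF4 held 1 edited read in APOBEC1-only replicate 1. For ATF4 the 2 constructs were thus not distinguishable at this depth.

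With no minimum, all 9 genes could be tested among the 7004 genes with at least 1 edited read in any HEK293T library, a library that does not list a gene counting as 0 edited reads. ALDH18A1 (limma adjusted p = 9.60e-08), ASNS (7.07e-06), PSAT1 (0.000414), PHGDH (0.00642) and MTHFD2 (0.0134) were then higher with Ribo-STAMP, 5 of 9 beside 32.4% of all genes (0% were lower). A whole APOBEC1-only library held only 2971 to 3498 edited reads, against 50908 to 65792 with Ribo-STAMP. A gene with more than a few Ribo-STAMP edits could thus hardly come out otherwise. The count is therefore a description and gives no support. PYCR1 (adjusted p = 0.109), SHMT2 (0.27), PSPH (0.392) and ATF4 (0.757) did not pass. The ATF4 interval, -0.93 to 1.32 on the log2(value + 1) scale, allows a change in either direction. No fold is given for the genes that are unlisted with APOBEC1 alone, since it would depend on the added 1.

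**Figure D1:**
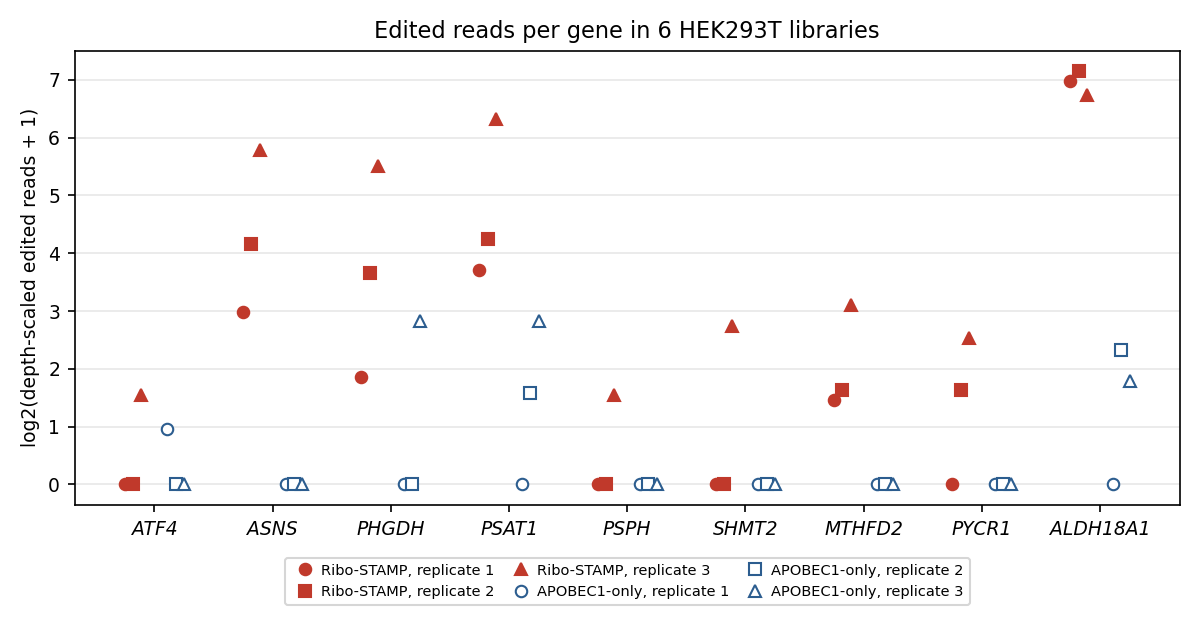
Depth-scaled edited reads of the 9 genes in HEK293T, on a log2(value + 1) axis, with filled symbols for Ribo-STAMP and open symbols for APOBEC1-only libraries. A gene not listed in a library is drawn at 0. ALDH18A1 is high in all 3 Ribo-STAMP libraries, whereas ASNS, PHGDH and PSAT1 are highest in replicate 3.

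Edited reads combine how much mRNA was read with how often each read was edited, so the second measure was the number of edited reads per 100 covering reads. It sums edits over positions, so it may exceed 100. ASNS showed 53.3, 76.2 and 46.3 per 100 in Ribo-STAMP replicates 1, 2 and 3, and ALDH18A1 showed 53.7, 63.3 and 51.4. PHGDH showed 23.1, 40.7 and 30.5. PSAT1 stood lowest of these 4, at 11.4, 10.8 and 12.4 per 100, with no overlap with the other 3 genes. With APOBEC1 alone the levels were 2.78 and 1.49 for ALDH18A1 (replicates 2 and 3), 1.37 and 1.34 for PSAT1 (replicates 2 and 3) and 2.49 for PHGDH (replicate 3). The coding sequence in which edits can fall is longer in ALDH18A1 (2385 bases) than in PSAT1 (1110 bases), and these levels are not divided by it.

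The test per covering read was restricted to isoforms listed in every HEK293T library, and none of the 9 genes has one, since APOBEC1-only replicate 1 lists only ATF4. Of the genes tested there, 95.7% were higher and 0% lower with Ribo-STAMP. After centring each library on its median gene the split was 73 higher and 53 lower. The difference in editing per read between the constructs was therefore not tested for the 9 genes, and their levels above are a description.

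Coverage of the serine and asparagine genes differed widely among the 3 Ribo-STAMP replicates. Depth-scaled covering reads of PHGDH were 11.3, 28.6 and 147 in replicates 1, 2 and 3, those of ASNS 13.0, 22.2 and 117, and those of PSAT1 107, 167 and 638. MTHFD2 had 8.68, 2.12 and 21.9. ALDH18A1 was level, at 233, 222 and 206. Relative to the mean of replicates 1 and 2, replicate 3 was 7.37 times higher for PHGDH, 6.66 for ASNS, 4.66 for PSAT1 and 4.06 for MTHFD2, and 0.906 times for ALDH18A1. Of the 5 genes listed in all 3 libraries with a mean depth-scaled coverage of at least 10, 4 thus reached 2 times. Of all 2487 genes with such coverage 16.4% did. At 8.68 and 2.12 in replicates 1 and 2, MTHFD2 reached that mean only through replicate 3, so its place among the 4 was fixed by this minimum. The count is a description of 1 library against the other 2 of its group, with no test.

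Replicate 3 read shorter transcripts more often, with a slope of -0.80 in log2 ratio per doubling of transcript length. With that trend removed the same count was 4 of 5, beside 13% of genes. The log2 excess was then 2.49 for MTHFD2, 1.98 for PHGDH, 1.90 for ASNS, 1.52 for PSAT1 and 0.066 for ALDH18A1. In the APOBEC1-only group this could be compared for PSAT1 alone of these 4, with 457 depth-scaled covering reads in replicate 3 and 145 in replicate 2. PHGDH was listed in APOBEC1-only replicate 3 alone, with 245, and ASNS and MTHFD2 in no library of that group.

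Other pathway genes were read in the same way. The same minimum left 14 other amino acid and one-carbon enzymes with coverage in all 3 Ribo-STAMP libraries. Of these, 6 were at least 2 times higher in replicate 3, beside the 16.4% of all genes. With the length trend removed 5 of 14 were, beside 13%. They included CTH (22.5 times), the last enzyme of cysteine synthesis from methionine, TYMS (5.80 times), which makes thymidylate, and GOT1 (4.84 times), the cytosolic aspartate aminotransferase. Their log2 excess with the length trend removed was 3.55, 1.53 and 2.12. CTH had 5.21 and 3.18 depth-scaled covering reads in replicates 1 and 2, so it too met the minimum only through replicate 3. So did SHMT1, another of the 6, with 5.21 and 11.6 in replicates 1 and 2 and 22.9 in replicate 3. CBS, the first enzyme of the same cysteine route, was 4.75 times higher and also had 219.8 depth-scaled covering reads in APOBEC1-only replicate 3, the only library of its group that listed it. With length removed its log2 excess was 1.88. Of 5 amino acid transporters 2 passed, SLC3A2 (6.60 times), the heavy chain of several transporters, and SLC1A5 (2.53 times), a glutamine transporter. With length removed these stood at 1.83 and 1.16 in log2, and 3 of 5 passed. Of 7 stress response regulators and other ATF4 targets 1 passed, the mTORC1 regulator SESN2 (5.06 times, 2.62 in log2 with length removed), and 2 of 7 passed with length removed. Whether the culture, the RNA or the library preparation of the libraries numbered 3 moved with these values was not tested, and the labels give no date for them.

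**Figure D2:**
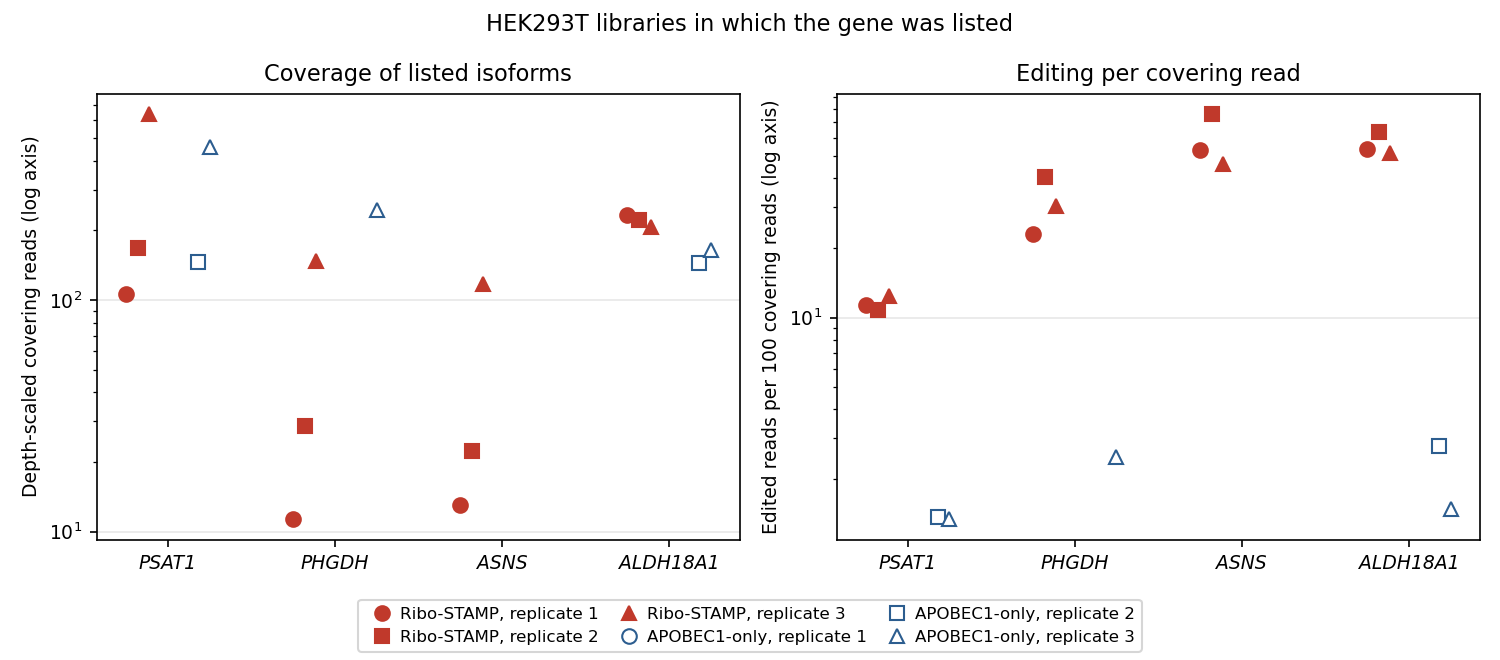
Depth-scaled covering reads (left, log axis) and edited reads per 100 covering reads (right, log axis) of PSAT1, PHGDH, ASNS and ALDH18A1 in the HEK293T libraries that list them, Ribo-STAMP filled and APOBEC1-only open. Coverage of PSAT1 runs between 107 and 638 over the Ribo-STAMP libraries while its editing per read stays between 10.8 and 12.4.

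Editing per read did not follow this spread in PSAT1, ASNS and PHGDH. PSAT1 kept 10.8 to 12.4 edited reads per 100 in Ribo-STAMP cells at coverages that differed several-fold, and 1.34 and 1.37 in APOBEC1-only cells. ASNS and PHGDH were at their middle or lowest level in the library where their coverage was highest. PSAT1 was slightly higher in replicate 3 (12.4) than in replicates 1 and 2 (11.4 and 10.8). MTHFD2 showed 20, 100 and 34.8 per 100 in replicates 1, 2 and 3, from few reads. The larger counts of edited reads of PSAT1, ASNS and PHGDH in replicate 3 came with more covering reads, and editing per read was not tested. Without both libraries numbered 3 the log2 changes in edited reads were 5.85 for ALDH18A1 and 3.15 for PSAT1.

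**Figure D3:**
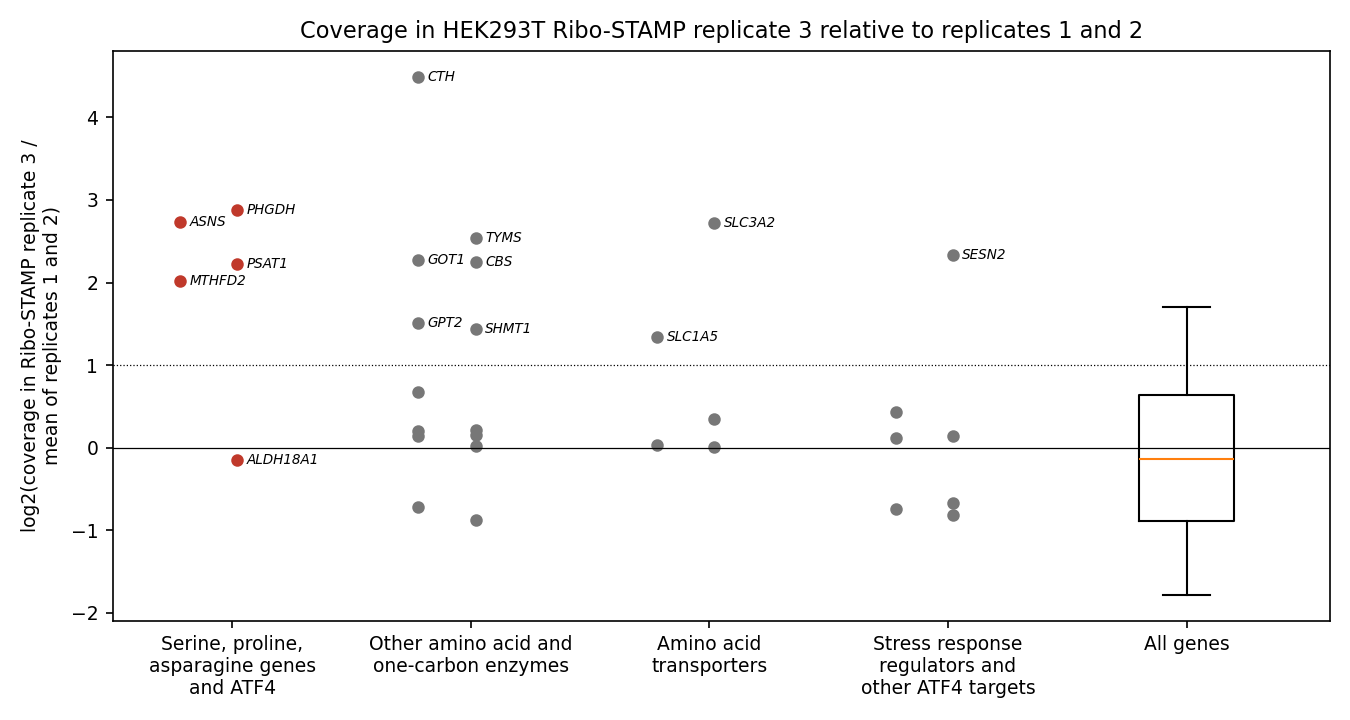
Log2 ratio of depth-scaled coverage in HEK293T Ribo-STAMP replicate 3 to the mean of replicates 1 and 2, by gene, for the 9 genes (red, 5 with coverage in all 3 libraries) and 3 lists of pathway genes (grey). Genes shown have coverage in all 3 libraries with a mean of at least 10. The box gives the quartiles and the 5th and 95th percentiles of 2440 genes, and the dotted line marks 2 times. PHGDH, ASNS, PSAT1 and MTHFD2 lie above the 95th percentile of 1.71 and ALDH18A1 at -0.14.

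Few genes of the pathway lists reached the minimum of edited reads, 7 other enzymes, 3 transporters and 2 stress response genes, and those that did so through the Ribo-STAMP libraries alone had to be higher, so no count is read from them. In depth-scaled edited reads MTHFD1, the cytosolic counterpart of the mitochondrial folate enzymes, averaged 195 ± 18.4 in Ribo-STAMP and 8.99 ± 0.876 in APOBEC1-only cells (SD, n = 3 each). OAT, which links ornithine to proline, averaged 31.1 ± 5.57 and 0.74 ± 0.65. XPOT, a tRNA exporter and ATF4 target, averaged 102 ± 46.0 and 0.814 ± 1.41.

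The second comparison asked how CoCl2 altered the same genes in MDA-MB-231. The 2 enzymes of proline synthesis moved in opposite directions. PYCR1, the last step, held 84.2 and 92.1 depth-scaled edited reads in CoCl2 replicates 1 and 2, against 27.4 and 45.7 in untreated replicates. ALDH18A1, the first step, held 34.9 and 34.7 with CoCl2, against 115 and 62.8 untreated. The groups did not overlap for either gene. PYCR1 rose (log2 change 1.29 ± 0.35, SE, limma adjusted p = 0.0348) and ALDH18A1 fell (log2 change -1.27 ± 0.36, adjusted p = 0.0394).

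SHMT2 and PSAT1 did not pass the test of edited reads. SHMT2 held 99.6 and 141 depth-scaled edited reads with CoCl2, against 50.01 and 109 untreated, and the groups overlapped (log2 change 0.68, 95% interval -0.15 to 1.51, adjusted p = 0.207). PSAT1 held 37.0 and 26.0 with CoCl2, against 73.6 and 32.4 untreated, again with overlap (log2 change -0.64, interval -1.56 to 0.29, adjusted p = 0.277). Thus 1 of 4 tested genes was higher and 1 lower, beside 12.1% higher and 2.9% lower of all 4097 genes tested. With TMM scaling the split over all genes was 342 higher and 217 lower, against 495 higher and 119 lower in the main test, and both calls held.

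Both calls are fragile. Leaving out CoCl2 replicate 1 or 2 ended them (PYCR1 adjusted p = 0.188 and 0.201, ALDH18A1 0.234 and 0.216), and so did leaving out untreated replicate 1 for ALDH18A1 (-0.84, adjusted p = 0.0868). Without untreated replicate 2, SHMT2 (1.22, adjusted p = 0.0011) and PSAT1 (-1.23, adjusted p = 0.00697) were called as well. In CoCl2 libraries longer transcripts had fewer reads relative to untreated ones, and with the length trend removed neither gene was called (PYCR1 0.76, adjusted p = 0.16, ALDH18A1 -0.85, adjusted p = 0.118).

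Coverage of isoforms listed in all 4 libraries, a stand-in for mRNA level, separated the genes more firmly. PYCR1 had 518 and 536 TMM-scaled covering reads in CoCl2 replicates 1 and 2, against 301 and 286 untreated, and rose (log2 change 0.84 ± 0.20, SE, limma adjusted p = 0.00385). ALDH18A1 had 74.1 and 66.6 with CoCl2, against 245 and 141 untreated, and fell (-1.39 ± 0.27, adjusted p = 0.00193). PSAT1, the aminotransferase of serine synthesis, had 116 and 86.8 with CoCl2, against 208 and 155 untreated, and also fell (-0.83 ± 0.25, adjusted p = 0.0128). For these 3 genes no CoCl2 library overlapped an untreated one.

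The other genes of the serine and folate branch did not pass. SHMT2 had 347 and 376 TMM-scaled covering reads with CoCl2, against 255 and 341 untreated (log2 change 0.29, 95% interval -0.15 to 0.73, adjusted p = 0.265). PSPH had 20.6 and 18.6 with CoCl2, against 36.8 and 30.2 untreated (-0.74, adjusted p = 0.0955). MTHFD2 had 12.3 and 10.9, against 34.9 and 13.2 (-0.84, adjusted p = 0.147). CoCl2 and untreated libraries did not overlap for any of the 3, but untreated replicate 2 lay close to the CoCl2 libraries for MTHFD2. Of 6 tested genes 1 was higher and 2 lower, beside 24.5% higher and 18.9% lower of all 5673 genes. The median of the 6 was -0.79, beside -0.04 over all genes.

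Transcript length was removed as a further check, because the log2 change in coverage fell by 0.51 per doubling of length over all genes. The calls held: ALDH18A1 (3359 bases) stood at -0.86 (adjusted p = 0.0217), PSAT1 (2188 bases) at -0.90 (adjusted p = 0.0261) and PYCR1 (1904 bases) at 0.52 (adjusted p = 0.0424). Over all genes the split became 465 higher and 354 lower. Without CoCl2 replicate 1 or 2 the 3 calls were lost with their directions kept (adjusted p 0.122 to 0.376), in tests that called 7 and 19 genes in all. Without untreated replicate 2, SHMT2 (0.50), PSPH (-0.88) and MTHFD2 (-1.51) were called in addition. PSAT1 also lost its call when isoforms listed in only 1 library of a group were let in, the missing library being filled with the coverage of the other (-0.76, adjusted p = 0.0785).

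**Figure D4:**
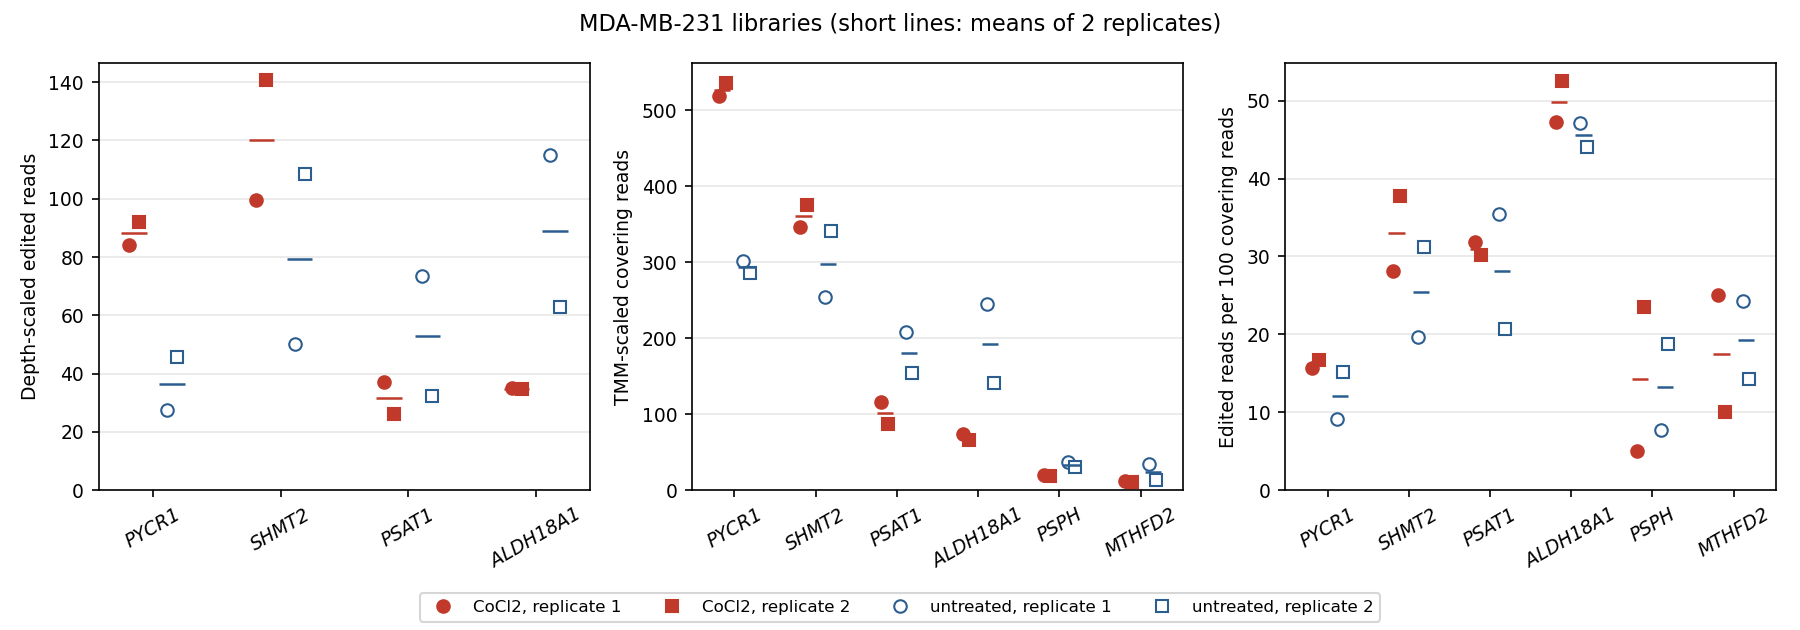
Depth-scaled edited reads, TMM-scaled covering reads and edited reads per 100 covering reads in the 2 CoCl2 (filled) and 2 untreated (open) MDA-MB-231 libraries, on linear axes, with short lines at the group means. PYCR1 lies higher with CoCl2 in edited reads and coverage, ALDH18A1 lies lower in both, and editing per read of ALDH18A1 lies between 44 and 52.5 in all 4 libraries.

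The third measure, editing per covering read, addressed whether reads of these transcripts were edited more or less often with CoCl2. ALDH18A1 showed 47.2 and 52.5 edited reads per 100 covering reads with CoCl2, against 47.1 and 44.0 untreated, so its loss of edited reads came with a loss of coverage. PYCR1 showed 15.7 and 16.7 with CoCl2, against 9.09 and 15.2 untreated. SHMT2 showed 28.2 and 37.8, against 19.6 and 31.2, and PSAT1 31.9 and 30.2, against 35.5 and 20.7. The groups of SHMT2 and PSAT1 overlapped. PSPH showed 5.00 and 23.5 with CoCl2, against 7.69 and 18.8 untreated, and MTHFD2 25 and 10.0, against 24.3 and 14.3, each from few reads.

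None of the 6 genes passed the test, and neither did any of the 5673 genes (0% higher and 0% lower, with 484 at an unadjusted p under 0.05). The odds set edited reads against unedited ones over every position of the gene that was edited in any library. Their log2 changes were 0.46 for PYCR1 (95% interval -0.19 to 1.12), 0.37 for SHMT2 (-0.35 to 1.09), 0.20 for PSAT1 (-0.60 to 1.01) and 0.13 for ALDH18A1 (-0.58 to 0.84), against a median of 0.20 over all genes. With weights for the reads behind each value, 13 genes were higher and 1 lower, none of the 9 among them. PYCR1 was then at 0.40 (interval -0.04 to 0.84, adjusted p = 0.513). These intervals hold changes in either direction, so a p above the threshold does not show that editing per read was the same.

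**Figure D5:**
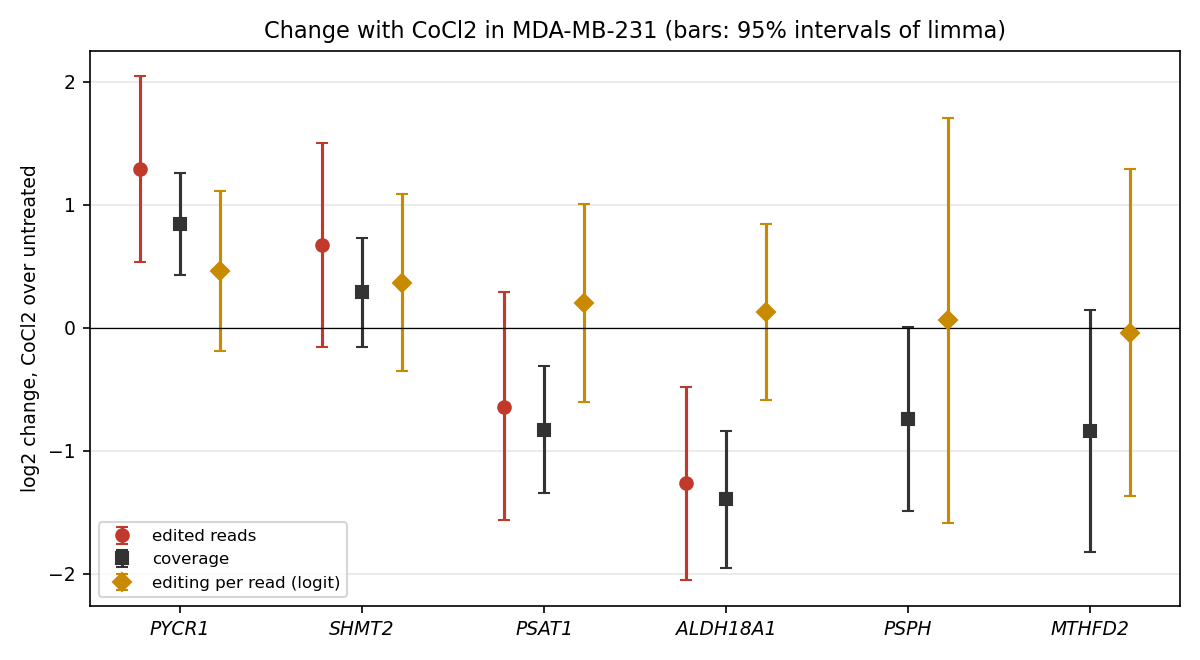
Log2 change, CoCl2 over untreated, of edited reads, coverage and editing per read (log2 odds) in MDA-MB-231, with 95% intervals from limma. Intervals for PYCR1 and ALDH18A1 exclude 0 in edited reads and coverage, in opposite directions, and every interval for editing per read includes 0.

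PYCR1 and SHMT2 were each read as several isoforms, given here for both conditions. The main PYCR1 isoform, ENST00000619204, held 58.7 and 58.8% of the gene's coverage with CoCl2, against 58.3 and 64.2% untreated. Its editing was 19.2 and 21.5 edited reads per 100 covering reads with CoCl2, against 12.4 and 18.2 untreated. ENST00000629768, which has a shorter coding sequence (651 bases, against 957), held 10.6 and 10.3 per 100 with CoCl2, against 1.47 and 7.5 untreated, from 11 and 10 edited reads against 1 and 3. For SHMT2 the main isoform ENST00000328923 showed 30.9 and 41.1 per 100 with CoCl2, against 22.7 and 36.7 untreated. Its second isoform ENST00000414700 showed 19.2 and 25.7, against 11.1 and 13.1. PYCR1 isoform ENST00000329875 showed 9.20 and 7.69 per 100 with CoCl2, against 7.69 and 10.0 untreated, with 16.3 and 17.7% of the gene's coverage, against 20.4 and 19.0%. ENST00000403172 showed 7.69 and 9.52 with CoCl2, against 15.4 in untreated replicate 2, from 2 edited reads in each. ENST00000619204, ENST00000629768 and ENST00000414700 thus lay higher in both CoCl2 libraries than in either untreated one, ENST00000328923 and ENST00000329875 overlapped, and ENST00000403172 lay lower in both than in the untreated library that lists it. Isoform values were not tested.

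In MDA-MB-231, 3 genes could not be tested. All had too few edited reads. ATF4 and ASNS also had no isoform listed in every library, and PHGDH stayed under the mean coverage of 10. ATF4 held 1 edited read in each CoCl2 library (of 22 and 29 covering reads) and was listed in neither untreated library. ASNS held 1 edited read in CoCl2 replicate 1 and none listed in replicate 2, against 5 and 3 in untreated libraries. PHGDH held 8 and 1 edited reads with CoCl2, against 6 and 15 untreated, on at most 13 covering reads. No direction can be drawn from these counts.

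Genes around the 9 in the same pathways changed in both directions. In coverage, 6 of the 14 other enzymes reported here fell with CoCl2 and none rose, beside 18.9% lower and 24.5% higher of all genes. OAT had 184 ± 12.2 TMM-scaled covering reads with CoCl2 and 416 ± 130 untreated (SD, n = 2 each, log2 change -1.14, adjusted p = 0.00207). The others were MTHFD1 (-1.08), GLUD1 (-0.99), CTH, GOT2 and SFXN1, a mitochondrial serine carrier. How reads were assigned between near-identical copies, such as PSAT1 and PSPH and their pseudogenes, is not given in the sources used here.

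Among 8 tested amino acid transporters none rose and 2 fell in coverage. They were SLC38A2, a neutral amino acid carrier, with 16.1 ± 4.94 with CoCl2 and 40.1 ± 14.1 untreated (-1.26, adjusted p = 0.0147), and SLC1A5 (-0.50, adjusted p = 0.0319). Among 11 tested stress response regulators and other ATF4 targets 4 rose. EIF4EBP1, an inhibitor of cap-dependent initiation, had 248 ± 20.2 TMM-scaled covering reads with CoCl2 and 98.6 ± 32.6 untreated (1.36, adjusted p = 0.0018). DDIT4, an mTORC1 inhibitor that hypoxia also induces, had 831 ± 70.9 and 383 ± 2.93 (1.11, adjusted p = 0.00156). TRIB3, a pseudokinase that binds ATF4, had 219 ± 4.28 and 147 ± 29.2 (0.59, adjusted p = 0.0436), and EIF2B4, a subunit of the eIF2 exchange factor, changed by 0.98. The eIF2 kinases EIF2AK1 (-1.10, adjusted p = 0.00301) and EIF2AK2 (-1.50, adjusted p = 0.0431) fell. EIF2AK2 rests on few reads, 4.82 ± 2.45 TMM-scaled covering reads with CoCl2 and 15.6 ± 7.36 untreated. These counts stand beside 24.5% higher and 18.9% lower of all genes, and the lists include genes that respond to other regulators. The length trend is not removed from the values given for the pathway lists. Over all genes its removal left 465 higher and 354 lower.

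The 2 lines read different members of the group, which is given as a description. Levels are covering reads per 100000 reads on listed isoforms. SHMT2 had 1.66 in Ribo-STAMP HEK293T replicate 3 and was unlisted in the other 2. In MDA-MB-231 it was among the most covered of the group, with 28.6 and 30.7 in CoCl2 libraries and 23.7 and 32.0 in untreated ones. PYCR1 had 2.54 and 7.20 in Ribo-STAMP HEK293T replicates 2 and 3, against 44.2 and 46.0 with CoCl2 and 28.0 and 27.8 untreated in MDA-MB-231. ASNS and PHGDH ran the other way, with 7.39 to 68.1 and 6.40 to 85.3 in Ribo-STAMP HEK293T libraries and at most 0.616 and 1.14 in MDA-MB-231. ALDH18A1 and PSAT1 were listed in every Ribo-STAMP library of both lines, also at higher levels in HEK293T. ALDH18A1 had 120 to 133 there and 5.45 to 22.8 in MDA-MB-231, and PSAT1 had 60.6 to 371 and 7.10 to 19.3. Since a gene is listed only where it was edited, and depth, kit and induction differ, these values are not expression differences between the lines.

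Across all 10 libraries, the genes whose edited reads per 100000 reads on listed isoforms, on a log2(value + 1) scale, followed those of PSAT1, the member with the highest mean coverage, most closely were GLG1 (Pearson r = 0.952), GARS1 (0.936) and EPS15L1 (0.929), among 9294 genes compared. A library that does not list a gene entered as 0 edited reads, as did APOBEC1-only replicate 1 for PSAT1. The points share libraries and differ in line, kit and depth, so this is a likeness over 10 libraries and no more.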

How the data were processed

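The authors deposited 1 text file per library, with no header, whose entries are 2 whole numbers, taken as edited and covering read counts, for a coding position in an isoform. This reading comes from the values. Aligner, edit caller, filters and strand handling: not given in the sources used here. Per the submitters' processing notes, the builds named are hg19 and hg38, without saying for which files. Of entries, 99.88 to 99.94% in MDA-MB-231 files and 2.34 to 4.72% in HEK293T files lay in their own gene's GRCh38 coding sequence (GENCODE 29), so coordinates are given for MDA-MB-231 only. No position is in all libraries of a line.

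Edited reads were summed per gene and divided by relative depth (median ratio of isoform coverage over 405 HEK293T and 7313 MDA-MB-231 isoforms in every library). Coverage is the median per isoform. For the MDA-MB-231 coverage test it was summed over isoforms listed in every library and scaled by TMM (trims of 30 and 5%). The HEK293T covering reads described above were summed over all isoforms that a library lists, and divided by relative depth where called depth-scaled. A gene needed 10 edited reads in 3 HEK293T or 2 MDA-MB-231 libraries, or a mean coverage of 10. limma 3.58.1 (R 4.3.3, intensity trend) tested log2(value + 1), which understates the change of low genes, or the log2 odds of editing, two-sided, with Benjamini-Hochberg adjustment over all genes tested and a threshold of 0.05. The odds are edited over unedited reads, each with 0.5 added, where the total is an isoform's coverage times the number of its positions edited in any library, summed over isoforms. The scripts were tested on simulated data.

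The named genes are the 9 members in every comparison and members of 3 pathway lists. A gene of the list of other enzymes is not reported here and is left out of that list's counts, which are therefore not those of the full list. The members and lists were chosen with earlier results of these data known.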

Additional observations from a re-analysis of the deposited data

How the results depend on the processing

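In HEK293T edited reads, members higher numbered 2. They numbered 2 to 4 when 1 library was left out, 1 with TMM and 5 with no filter. Genes called numbered 653, with 757 to 1064 when 1 library was left out (fewer libraries are then asked for), 358 with TMM and 2267 with no filter. Per covering read the members higher were 0, with 0 to 2 when 1 library was left out and 3 with isoforms listed in each group, where each unlisted library was filled with its group's mean coverage and 0 edited reads, so that this count gives no support. Genes called there were 375, with 366 to 603 when 1 library was left out, 126 after centring, 610 without both libraries numbered 3 (an alternative chosen after seeing the data, as were the precision weights) and 1551 with isoforms listed in each group. In MDA-MB-231 edited reads the 1 higher and 1 lower member became 0 to 2 each when 1 library was left out, and 0 each with no filter, with at least 20 covering reads, with the number of positions and with the length trend removed. Genes called were 614, and 6 to 1648, 0, 205, 188 and 179 under these settings. In MDA-MB-231 coverage the 1 higher and 2 lower members became 0 to 2 and 0 to 4 when 1 library was left out, with 1 lower for isoforms listed in each group, filled in likewise. Genes called were 2464, and 7 to 3871, 1361, and 819 with the length trend removed. Where these settings test fewer or more genes, that is their construction, and otherwise the cause was not tested. For editing per read in MDA-MB-231 the precision weights called 14 genes. Uncalled values there changed sign for PSPH (-0.86 to 0.98 with 1 library left out, -0.14 centred, -0.12 with length removed), MTHFD2 (-0.53 to 0.45 with 1 library left out, 0.27 with a pseudocount of 2), PSAT1 (-0.18 to 0.59 with 1 library left out) and ALDH18A1 (-0.067 centred, -0.052 with length removed).

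The replicate numbers do not count as pairing the samples, since same-numbered HEK293T libraries deviated together with correlations of 0.087, 0.12 and 0.332 and MDA-MB-231 libraries with 0.023. Number 3 of HEK293T correlated best with its own number, but numbers 1 and 2 did not. With the replicate block, 654 genes were called in HEK293T edited reads, 380 per read, 1088 in MDA-MB-231 edited reads, 0 per read and 2435 in coverage, and no member call changed. Numbers of reads limit every statement on ATF4, PSPH, PHGDH and ASNS in MDA-MB-231.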
